A study of Mus musculus with 12 samples.

Results

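Gene expression under PD1 blockade was compared with that under a control antibody in tumor cells from wild-type (WT) MC38 tumors. The comparison takes the 6 WT libraries among the 12 of the count table: anti-PD1 replicates 1, 2 and 3 against IgG replicates 1, 2 and 4, each from a different mouse. MC38 is a mouse colon cancer line, and in the other 6 libraries its cells carry the A159V change in the small GTPase Rac1. For all groups, 2000000 MC38 cells in Matrigel were placed under the skin of C57BL/6 mice, female or male, aged 6 to 8 weeks. The WT IgG group (n = 3 mice) received 100 μg of IgG isotype control, and the WT anti-PD1 group (n = 3 mice) received 100 μg of anti-PD1, in both cases into the peritoneum every 3 days from day 3. Tumors were taken on day 13, dissociated and depleted of other cells with a magnetic tumor cell isolation kit, and their polyadenylated RNA was read in pairs of 100 bases. The question is which genes of the purified tumor cells differ after PD1 blockade, and which of the differences belong to genes of leukocytes that the purification left behind.

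PD1 is an inhibitory receptor on activated T cells, and antibodies that block it release those cells to attack tumors. T cells and natural killer (NK) cells then secrete interferon-gamma, to which tumor cells usually answer with more antigen presentation, guanylate-binding proteins, chemokines and PD-L1. Tumor cells also adjust their growth signals: the EGF receptor and the ERK kinases switch on immediate early transcription factors within minutes, and feedback inhibitors such as Errfi1 and the dual-specificity phosphatases damp the signal again.

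Total counts were 19655947, 15770884 and 19032609 in IgG replicates 1, 2 and 4, and 18888677, 14053582 and 16839346 in anti-PD1 replicates 1, 2 and 3. A gene with 3 counts was taken as the floor of detection, a limit that covers counting error only. By raw totals this floor was at 0.153 to 0.214 CPM (the count scaled to the library size) in these libraries. The other CPM values are TMM-scaled, and on that scale 3 counts in IgG replicate 1 were 0.164 CPM. The cells were labelled as an adenocarcinoma line. The epithelial genes Krt8 (2 to 13 counts per library), Krt18 (5 to 17 counts) and Epcam (0 to 2 counts) were near 0, so the defining epithelial markers were at or near the floor. Vim, the mesenchymal intermediate filament gene, was at 823.5 CPM per kilobase of exon in IgG and 794.8 in anti-PD1. Rac1 itself was at 512, 402 and 441 CPM in the IgG libraries and at 451, 403 and 414 CPM in the anti-PD1 libraries, with overlapping groups (log2 fold change −0.10, standard error 0.15, adjusted p = 0.700).

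IgG replicate 1 stood apart from the other WT libraries. Between it and the other 5 libraries, Pearson's r of log2 CPM was 0.947 to 0.975, computed over 14340 genes that are no independent replicates. Among those 5 libraries r was 0.974 to 0.990, so the ranges met. It had the steepest fall of log2 CPM with exon length (slope −0.23, against −0.09 and 0.01 in IgG replicates 2 and 4 and 0.05, 0.04 and 0.06 in the anti-PD1 libraries). Genes of cytosolic ribosomal proteins summed to 117900 CPM in it, against 70620 and 56820 CPM in the other IgG libraries and 57830, 57060 and 50400 CPM with anti-PD1. On the first principal component of the 500 most variable genes in the WT libraries (52.8% of the variance), the IgG libraries lay at −29.2, −16.6 and −4.23 and the anti-PD1 libraries at 13.8, 17.8 and 18.4. The groups did not overlap on this axis, and IgG replicate 4 lay closest to the anti-PD1 libraries. Results are therefore also given without IgG replicate 1. It was not the only library of low weight: sample quality weights by voom were 0.184, 4.21 and 0.360 in IgG replicates 1, 2 and 4. With anti-PD1 they were 2.10, 2.33 and 0.988. Other traits of the libraries parted the groups too, beside the slope with exon length. The mitochondrial share of the counts was 4.70%, 4.01% and 4.2% in IgG and 3.90%, 2.89% and 3.85% in anti-PD1, and the share of the 10 most abundant genes was 6.66%, 5.98% and 5.83% against 5.43%, 4.63% and 5.38%. The groups did not overlap in either, and the part of these traits in the results was not tested.

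Of the 14340 genes tested, 90 (0.628%) were differentially expressed (DEGs), that is, their adjusted p in the quasi-likelihood test of edgeR was under 0.05 and their log2 fold change was above 0.3 in size. Of these, 71 (0.495%) were higher with anti-PD1 and 19 (0.132%) were lower. This tilt to higher calls depends on the fit: voom called 155 higher and 33 lower, but DESeq2 716 and 762, edgeR at an adjusted p under 0.1 724 and 663, and edgeR without IgG replicate 4 1799 and 1659. An unadjusted p under 0.05 was reached by 27.5% of the genes. The 3 anti-PD1 values lay all above the 3 IgG values for 18.8% of the genes tested and all below for 15.8%, and every one of the 90 DEGs was of this kind. The adjusted p values of the DEGs ran from 0.00302 to 0.0492, that of the next gene was 0.0513, and 1297 genes lay between 0.05 and 0.1. Without IgG replicate 1, 1 gene (0.00697%) was a DEG, Errfi1, although each of the 90 kept its direction. Their log2 fold changes then moved by a median of 0.13 and by at most 1.98 (Cd8a, from 4.53 to 6.51), their adjusted p values lay between 0.0535 and 0.134 apart from that of Errfi1, and 68 of the 90 had an adjusted p under 0.1 with that gene included. The count fell to 28 without IgG replicate 2, to 3, 2 and 10 without anti-PD1 replicates 1, 2 and 3, and rose to 3458 without IgG replicate 4.

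The DEGs fell into classes by lists of genes. For every list below, the share over all genes tested was 0.628% DEGs, 0.495% higher and 0.132% lower. A positive log2 fold change was held by 7375 of the 14340 genes. Among 129 tested genes of leukocyte lists, 17 (13.2%) were DEGs, all higher with anti-PD1, with a median log2 fold change of 2.79. Among 187 genes of interferon, antigen presentation and cytokine lists, 4 (2.14%) were DEGs. Other lists, from cell division to adhesion, held 566 tested genes with 15 DEGs (2.65%), 9 higher and 6 lower. The remaining 54 DEGs, 42 higher and 12 lower, were on no list and made up 0.401% of 13458 genes. The higher leukocyte genes had a median level of 0.233 CPM in IgG and 2.35 CPM in anti-PD1, the higher interferon, antigen presentation and cytokine genes 1.62 and 5.92 CPM, the higher genes of the other lists 36.1 and 77.3 CPM, and the higher genes on no list 2.82 and 9.52 CPM. By edgeR the number of leukocyte DEGs was 0 without IgG replicate 1, 4 without replicate 2 and 57 without replicate 4, and 1, 0 and 2 without anti-PD1 replicates 1, 2 and 3. In bulk RNA, more cells of a type and more RNA per cell cannot be told apart, so these values do not say whether leukocytes were more frequent or more active.

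**Figure D1:**
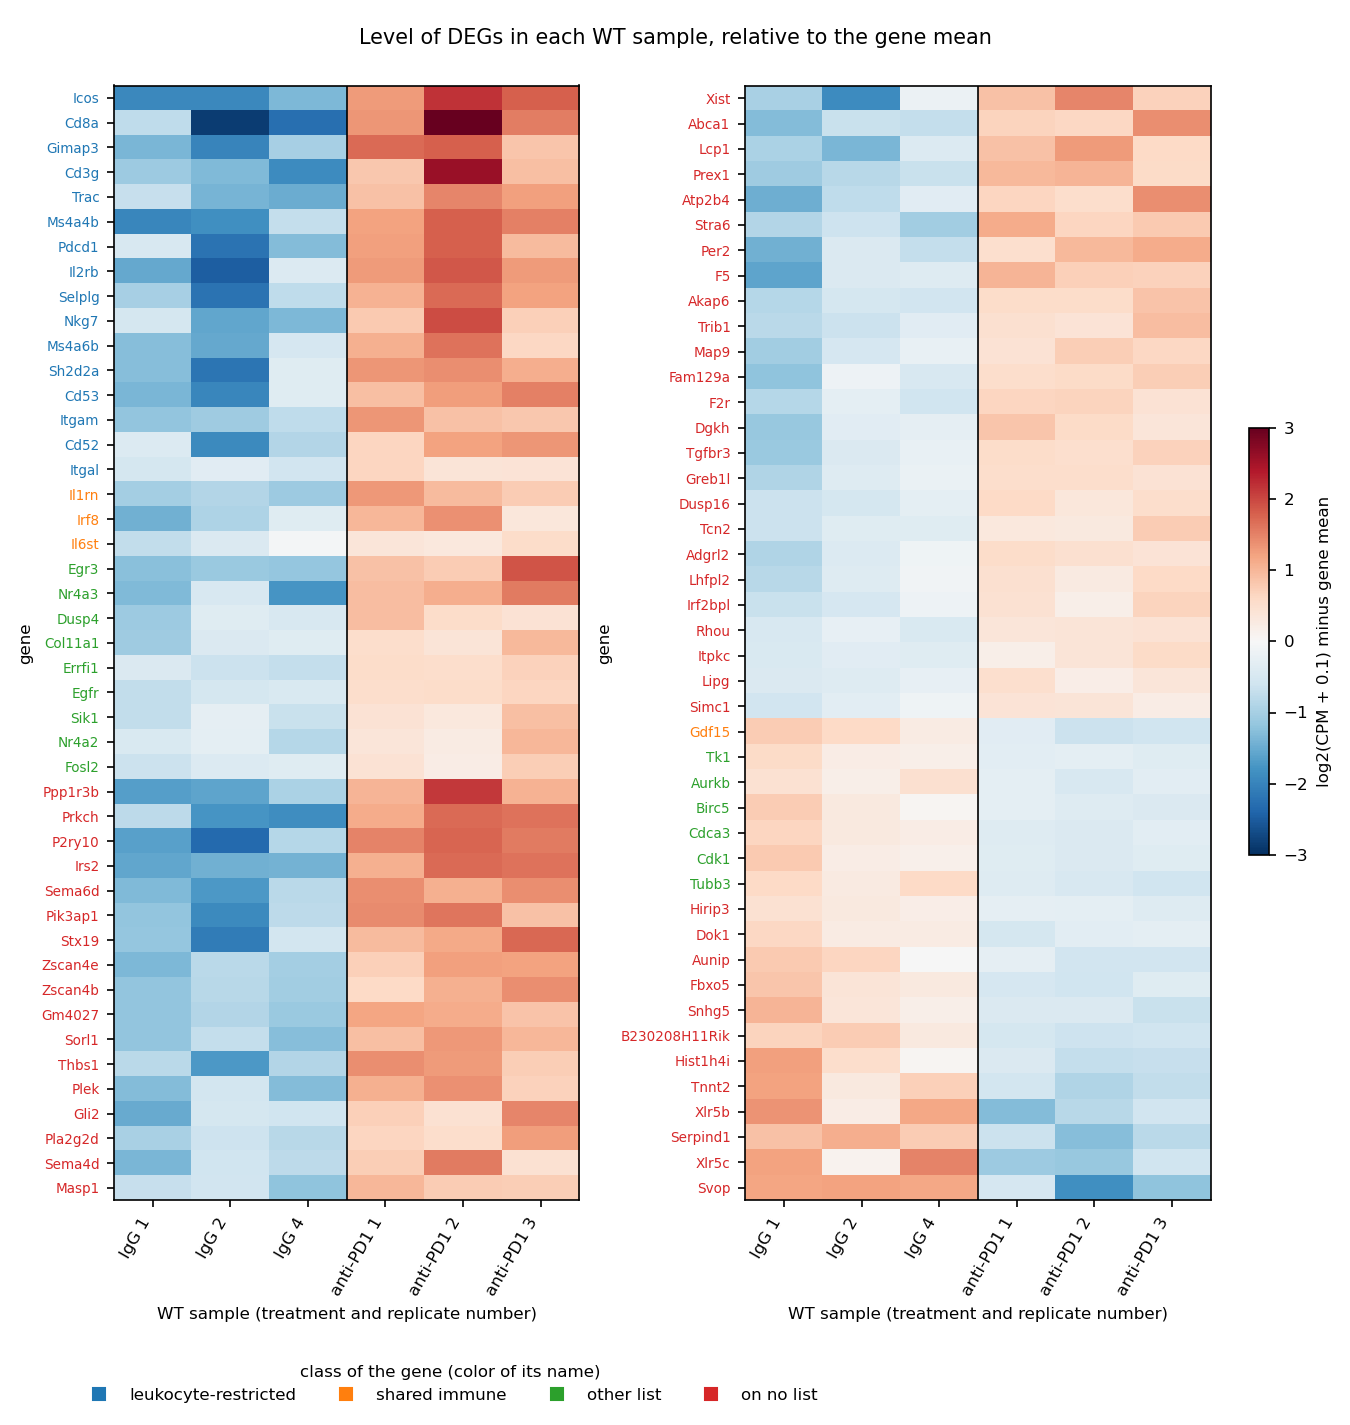
Heat map of DEGs (rows; the color of a name gives its class) in the 6 WT libraries (columns), as log2 of CPM plus 0.1 minus the mean of the gene. The leukocyte genes, all higher with anti-PD1, open the first panel, and the 19 genes lower with anti-PD1 close the second.

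T and NK cell genes made up most of the leukocyte part. Of 78 listed genes 49 could be tested, and 48 of the 49 had a positive log2 fold change, where 7375 of all 14340 genes tested did. In the list 12 were higher DEGs, beside 0.495% of all genes tested, and none was lower. The median log2 fold change was 2.23 against 0.01 over all genes tested. Summed over the list, the level was 120, 103 and 122 CPM in IgG replicates 1, 2 and 4 and 216, 261 and 185 CPM in anti-PD1 replicates 1, 2 and 3, without overlap. The most abundant member, Il18rap, held 29.8% of this sum and was at 45.6 ± 4.63 CPM (SD, n = 3) in IgG and 54.6 ± 6.89 CPM in anti-PD1. Without it the sums were 71.4, 55.4 and 81.8 CPM against 157, 203 and 138 CPM. The median of the list was 2.08 without IgG replicate 1 and 2.76 without IgG replicate 4, 3.07 by voom with sample quality weights, and 0.29 over the 5 members that had at least 10 counts in every sample. In the list, 4 of the 49 genes were above 5 CPM in IgG, 18 of the 78 had 3 counts or fewer over the 3 IgG libraries together, and 2 also stand on another list. A member that is scarce in IgG passed the low-count filter through the treated libraries in which it was high, so the counts and the median describe the genes tested and not the whole list.

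Cd8a, the coreceptor of cytotoxic T cells, was at 0.328, 0 and 0.0502 CPM in IgG replicates 1, 2 and 4 and at 1.71, 5.70 and 2.00 CPM in anti-PD1 replicates 1, 2 and 3. All 3 anti-PD1 libraries were higher, with replicate 2 far above the others (log2 fold change 4.53, standard error 0.77, adjusted p = 0.0301). With 1 WT library left out, its log2 fold change ran from 3.79 to 6.51, the highest without IgG replicate 1, so its size is uncertain. Cd3g, a chain of the T cell receptor complex, was also highest in anti-PD1 replicate 2, with 0.164, 0.122 and 0.0502 CPM in IgG and 0.880, 3.29 and 0.947 CPM in anti-PD1 (log2 fold change 3.84, adjusted p = 0.0379). Ms4a4b, a membrane protein of T cells, was at 0.219, 0.245 and 0.652 CPM in IgG and 2.74, 4.16 and 3.40 CPM in anti-PD1 (log2 fold change 3.15, adjusted p = 0.0129). Icos, a costimulatory receptor of activated T cells, had 1 count in the IgG libraries together and 62 in the anti-PD1 libraries, a ratio of 64.8 in CPM with an exact 95% counting interval from 11.2 to 2601, or of 21.6 with the IgG count set to the floor of 3. For Gimap3, a GTPase of lymphocytes, 3 counts stood against 53, a ratio of 18.5 with an interval from 5.99 to 92.4. Gimap and Ms4a genes have close relatives whose reads the counting could split or assign to each other, so the share of each is uncertain.

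Pdcd1, which encodes PD1, the target of the antibody, was at 0.437, 0.0612 and 0.201 CPM in IgG and at 1.66, 2.48 and 1.34 CPM in anti-PD1, with no overlap (log2 fold change 2.90, standard error 0.54, adjusted p = 0.0369). The log2 fold change was 3.67 without IgG replicate 1. Further DEGs of the list were Il2rb, the interleukin-2 receptor beta chain (2.79), Trac, the constant part of the T cell receptor alpha chain (3.16), the T cell adaptor Sh2d2a (2.53), the cytotoxic granule gene Nkg7 (2.58) and Ms4a6b (2.57). Gzmb and Prf1, the granule proteins with which cytotoxic cells kill, did not pass: Gzmb was at 1.82 ± 1.86 CPM in IgG and 12.5 ± 3.22 CPM in anti-PD1 (adjusted p = 0.0725), and Prf1 at 0.629 ± 0.850 and 4.36 ± 1.04 CPM (adjusted p = 0.0709). Their groups did not overlap, but the IgG libraries spread widely. Cd4 had 1 count in IgG and 2 counts in anti-PD1, so transcripts of the helper T cell coreceptor were not detectable at this depth. Cd3e was too low for the test, with 2, 0 and 1 counts in IgG and 16, 24 and 8 counts in anti-PD1.

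Ptprc encodes CD45, the surface protein common to leukocytes. It was at 0.929, 0.183 and 2.81 CPM in IgG and at 9.01, 14.2 and 7.46 CPM in anti-PD1. The groups did not overlap, yet the test missed the threshold (log2 fold change 2.92, standard error 0.62, adjusted p = 0.0544). In the pan-leukocyte list, 30 of 34 genes were tested and 27 had a positive log2 fold change, where 7375 of all 14340 genes tested did. Higher DEGs were 4 of the 30, beside 0.495% of all genes tested, and none was lower. They were Selplg, a selectin ligand (2.68), the tetraspanin Cd53 (2.53), the small surface protein Cd52 (2.17) and the integrin Itgal (0.98). The median of the list was 1.08, 1.04 without IgG replicate 1 and 0.66 over the 14 members that had at least 10 counts in every sample. The summed level of this list did not part the groups, with 268, 185 and 251 CPM in IgG and 241, 256 and 254 CPM in anti-PD1. The adaptor gene Fyb alone held 45% of that sum and ran the other way, at 137 ± 36.0 CPM in IgG and 81.7 ± 4.68 CPM in anti-PD1 (adjusted p = 0.0581). Without Fyb the sums were 95.5, 85.1 and 113 CPM against 162, 177 and 167 CPM. The list therefore mixes scarce leukocyte transcripts with genes that were abundant in every library: 6 of its 30 tested members were above 5 CPM in IgG.

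Lists of other leukocytes held 1 DEG. Of 25 tested macrophage and monocyte genes 1 was a DEG, Itgam, the integrin chain CD11b (log2 fold change 2.44). The list had a median of 0.93, 1.03 without IgG replicate 1 and 0.37 over the 9 members that had at least 10 counts in every sample. Its summed level was 110, 88.8 and 88.9 CPM in IgG and 151, 142 and 122 CPM in anti-PD1, of which Cd68 held 24.7%. The defining macrophage markers were near 0 in all 6 libraries, with 1 to 9 counts for Csf1r, 1 to 2 for Adgre1 and 0 to 9 for C1qa, and none could be tested. The neutrophil markers Csf3r, with 0, 0 and 1 counts in IgG and 6, 7 and 6 counts in anti-PD1, and S100a9, with 1, 0 and 0 against 9, 11 and 3 counts, were too low for the test. They were higher in all 3 anti-PD1 libraries, whereas the tested marker S100a8 had 6, 4 and 14 against 6, 13 and 7 counts, with overlap. Neutrophil genes (5 tested, 0 DEGs, median 0.24), dendritic cell genes (11 tested, 0 DEGs, median −0.24), B and plasma cell genes (8 tested, 0 DEGs, median 0.39) and mast cell genes (1 tested, 0 DEGs, 0.10) gave no call in edgeR. Without IgG replicate 1 these medians were 0.32, −0.08, 0.66 and 0.15. At an unadjusted p under 0.05 these lists held 0, 2, 3 and 0 genes, DESeq2 called 0, 1, 1 and 0, and voom 0, 1, 0 and 0, where over all genes DESeq2 called 10.3% and voom 1.31%. The B cell marker Ms4a1 (0 counts) and the mast cell markers Cpa3 and Ms4a2 (0 counts) were not detected. In contrast, 3 members of these lists, Bst2 (684 ± 314 CPM in IgG, 487 ± 8.04 CPM in anti-PD1), Zbtb46 (13.6 ± 2.95 and 14.4 ± 2.55 CPM) and Cd79a (4.64 ± 1.09 and 4.63 ± 1.37 CPM), were transcribed in every library of both groups. Presence on a leukocyte list does not by itself place a transcript in a leukocyte.

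Levels of different genes were compared on 1 scale, CPM per kilobase of exon. The highest level that a leukocyte DEG reached in the anti-PD1 group was 2.57 CPM per kilobase, for Nkg7, while Gzmb, a T and NK cell gene that was not called, reached 8.71. Of the 54 higher DEGs outside the leukocyte lists, 18 were above 2.57 CPM per kilobase already in the IgG group. Their log2 fold changes were moderate, with a median of 0.94 and a range of 0.67 to 1.26. The other 36 began lower and had a median of 1.97 and a range of 0.97 to 3.67. The IgG level is also the base of the fold, so larger folds among the 36 were in part built into this split. Level alone does not give the cell that a transcript came from, and the part of leukocytes in the rise of these 54 genes was not tested. Among the 19 lower DEGs, 15 were above 2.57 CPM per kilobase in IgG.

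The higher DEGs include feedback inhibitors of growth factor signaling. Errfi1, also called Mig6, binds the EGF receptor and blocks its kinase, and it lies on chromosome 4 from 150853919 to 150868892. It was at 44.4, 38.7 and 36.9 CPM in IgG replicates 1, 2 and 4 and at 89.0, 87.0 and 98.3 CPM in anti-PD1 replicates 1, 2 and 3. Each anti-PD1 library held about the same level and all lay above the IgG libraries (log2 fold change 1.19, standard error 0.12, adjusted p = 0.00302, higher in 3 of 3 libraries). It is the 1 gene called in all 6 fits that each leave out 1 WT library, with log2 fold changes from 1.14 to 1.28. Dusp4, a phosphatase that inactivates ERK in the nucleus, rose from 63.5 ± 15.9 CPM (SD, n = 3) in IgG to 152 ± 27.4 CPM in anti-PD1 (log2 fold change 1.26, adjusted p = 0.0187). Egfr, the receptor itself, rose from 6.55 ± 0.685 to 14.6 ± 0.598 CPM (log2 fold change 1.15, adjusted p = 0.0312). Egfr was scarce per length, at 0.578 CPM per kilobase in IgG and 1.285 in anti-PD1, and is 1 of the 36. These were the 3 DEGs among 28 tested genes of ERK feedback and EGFR ligands, where 0.495% of all genes tested were higher DEGs, and none was lower. The median of that list was 0.20, or 0.12 without IgG replicate 1, so the calls were few among its members. Spry2, for example, an inhibitor of receptor kinase signaling, had a log2 fold change of 0.13 (adjusted p = 0.576), the ERK phosphatase Dusp6 of −0.06 (adjusted p = 0.852) and the ligand gene Hbegf of 0.27 (adjusted p = 0.418).

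Outside the leukocyte lists, immediate early genes held the most higher DEGs of any list. Of 29 tested genes 5 were higher DEGs, beside 0.495% of all genes tested, and none was a lower one. In the list 19 of the 29 had a positive log2 fold change, and the median over the list was 0.38 on the log2 scale, or 0.28 without IgG replicate 1. Nr4a3, an orphan nuclear receptor, was at 10.4, 18.8 and 7.63 CPM in IgG and at 49.5, 56.0 and 77.3 CPM in anti-PD1. Its groups were far apart although IgG replicate 2 was high for its group (log2 fold change 2.32, standard error 0.28, adjusted p = 0.0106). It was called in 5 of the 6 fits with 1 library left out. The related receptor Nr4a2 rose from 36.1 ± 7.16 to 77.3 ± 23.3 CPM (log2 fold change 1.10, adjusted p = 0.0492). Egr3, a zinc finger factor, rose from 0.991 ± 0.0566 to 5.78 ± 2.72 CPM (2.54, adjusted p = 0.0178). Fosl2, an AP-1 subunit, rose from 116 ± 11.8 to 225 ± 41.2 CPM (0.95, adjusted p = 0.0165). The kinase gene Sik1, a target of cAMP signaling, rose from 135 ± 24.4 to 292 ± 65.4 CPM (1.12, adjusted p = 0.0341). The best known members did not pass: Fos had a log2 fold change of 0.56 (adjusted p = 0.169), Egr1 of 0.55 (adjusted p = 0.172) and Jun of −0.47 (adjusted p = 0.248). Nr4a genes, Egr3 and Sik1 are also switched on in stimulated T cells, and the summed T and NK cell level was higher with anti-PD1 as well. The part of leukocytes in their rise was not tested.

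**Figure D2:**
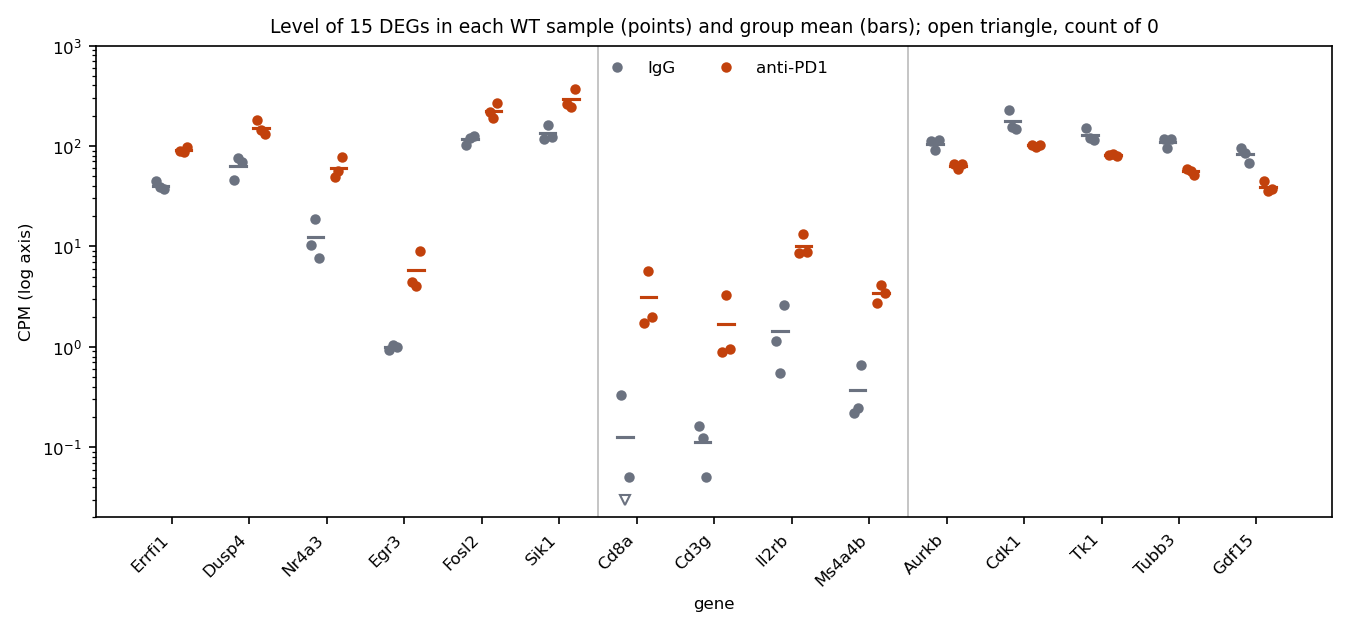
CPM on a log axis of 15 DEGs in the WT libraries, with points for libraries, bars for group means and open triangles for counts of 0; the panels hold regulators of growth signaling, T cell genes and lower genes. Errfi1 lies at 36.9 to 44.4 CPM in IgG and 87.0 to 98.3 CPM in anti-PD1, and Cd8a at or below 0.328 CPM in IgG.

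Further genes with a known part in signaling rose without belonging to a list. F2r, the thrombin receptor, was at 20.5, 30.3 and 24.4 CPM in IgG and 58.2, 59.2 and 50.6 CPM in anti-PD1 (log2 fold change 1.16, adjusted p = 0.0165). Rhou, an atypical GTPase related to Cdc42, was at 14, 16.5 and 14.3 CPM against 25.1, 25.6 and 26.7 CPM (0.79, adjusted p = 0.0165). In both, libraries of a group lay close together and the groups were well apart, which a choice by small p favors. Trib1, a pseudokinase that controls protein turnover, rose by 1.22 on the log2 scale, the transcriptional regulator Irf2bpl by 0.87, the clock gene Per2 by 1.71, the phosphatase gene Dusp16, which acts on JNK and p38, by 0.97, the TGF-beta coreceptor gene Tgfbr3 by 1.13 and Fam129a by 1.17. Thbs1, which encodes the matrix protein thrombospondin-1, rose from 3.11 ± 1.00 to 15.2 ± 3.44 CPM (2.28, adjusted p = 0.0410), and the cholesterol exporter gene Abca1 by 1.84. The secreted and membrane proteins Lipg (0.71), Tcn2 (0.93), Adgrl2 (0.92) and Lhfpl2 (0.87) and the intracellular Itpkc (0.78) and Simc1 (0.67) were, with Il6st, the remaining abundant ones.

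Several higher DEGs on no list were scarce in IgG. Prex1, an exchange factor that activates Rac proteins, was at 0.929, 1.10 and 1.25 CPM in IgG and 4.09, 4.29 and 3.12 CPM in anti-PD1 (log2 fold change 1.80, adjusted p = 0.0129). Lcp1, an actin-bundling protein abundant in leukocytes and also made by many tumor lines, was at 3.39, 2.51 and 4.97 CPM against 12.4, 16.3 and 10.2 CPM (1.82, adjusted p = 0.0129). Plek, a substrate of protein kinase C in blood cells, was at 0.656, 1.16 and 0.652 CPM against 3.78, 4.69 and 2.90 CPM (2.20, adjusted p = 0.0165). For each of these the 3 treated libraries were the highest, as for every higher DEG, and the spread within a group was small beside the difference. Their values are shown because of their small p, so this gap was built into the choice. Irs2, an adaptor of the insulin receptor, was at 0.219, 0.245 and 0.251 CPM against 1.86, 2.95 and 2.78 CPM (3.37, adjusted p = 0.0165). Ppp1r3b, a subunit that targets a phosphatase to glycogen, was at 0.0546, 0.0612 and 0.151 CPM against 0.880, 2.01 and 0.891 CPM (3.67, adjusted p = 0.0307). Both were near the floor of detection in IgG. The signaling genes Pik3ap1 (3.06), Prkch (3.64), P2ry10 (3.52) and Sema4d (1.97), which are known from lymphocytes, rose as well, as did the axon guidance gene Sema6d (3.17), the sorting receptor gene Sorl1 (2.37), the Hedgehog factor gene Gli2 (2.03), the retinol transport gene Stra6 (1.73), the coagulation factor gene F5 (1.61) and the complement protease gene Masp1 (1.93). Stx19 (2.71), Pla2g2d (1.97), Atp2b4 (1.75), Akap6 (1.34), Map9 (1.18), Dgkh (1.15) and Greb1l (0.98) complete the protein-coding genes outside families of near-identical copies. Zscan4b (2.40), Zscan4e (2.42) and Gm4027 (2.38) belong to such families, and their counts are uncertain for that reason.

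By edgeR few genes of cell division were DEGs, and those were lower with anti-PD1. Of 62 tested mitosis genes 4 were lower DEGs (0.132% of all genes were) and none was a higher one, 13 had a positive log2 fold change, the median was −0.30 (−0.29 without IgG replicate 1) and 34 of the 62 had all anti-PD1 libraries below all IgG libraries, against 15.8% of all genes. Summed mitosis levels were 6378, 6516 and 7131 CPM in IgG and 6034, 5572 and 5738 CPM in anti-PD1, without overlap. Top2a, the most abundant member, held 9.93% of that sum. Of 55 tested DNA replication genes 1 was a lower DEG and none a higher one, 6 had a positive log2 fold change, the median was −0.34 (−0.27 without IgG replicate 1) and 37 had groups that did not overlap in this direction. Their sums were 6083, 5657 and 5727 CPM against 5280, 4819 and 4408 CPM. Not all members moved in this way: the proliferation antigen gene Mki67 had a log2 fold change of 0.20 (adjusted p = 0.531). The number called depends on the fit. In either direction, DESeq2 called 21 mitosis and 17 replication genes (10.3% of all genes), and voom 6 and 2 (1.31% of all). An unadjusted p under 0.05 in edgeR was reached by 26 and 31 (27.5% of all).

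Aurkb, the kinase that corrects the attachment of chromosomes, was at 112, 92.0 and 114 CPM in IgG and at 66.6, 58.7 and 66.2 CPM in anti-PD1 (log2 fold change −0.73, standard error 0.13, adjusted p = 0.0307). Cdca3, which helps to trigger entry into mitosis, was at 143, 112 and 106 CPM against 69.6, 68.4 and 73.3 CPM (−0.77, adjusted p = 0.0369). The anti-PD1 libraries of both genes were alike, while IgG replicate 1 was the highest library for Cdca3. Cdk1, the main mitotic kinase, fell from 176 ± 44.7 to 101 ± 3.06 CPM (−0.80, adjusted p = 0.0438), with −0.57 without IgG replicate 1. Birc5, the survivin gene, fell from 118 ± 30.1 to 69.2 ± 3.15 CPM (−0.77, adjusted p = 0.0492). Tk1, the thymidine kinase of the S phase, fell from 129 ± 20.5 to 81.3 ± 2.06 CPM (−0.66, adjusted p = 0.0473). Other lower DEGs with a role in division or chromatin were on no list. Fbxo5, an inhibitor of the anaphase-promoting complex, fell from 31.1 ± 6.46 to 15.4 ± 1.28 CPM (−1.01, adjusted p = 0.0473). Aunip, a partner of Aurora A, was at 25.9, 23.6 and 15 CPM in IgG and 12.4, 10.1 and 10.1 CPM in anti-PD1 (−0.98, adjusted p = 0.0395). Hirip3, a partner of the histone chaperone HIRA, was at 106, 94.6 and 88.8 CPM against 63.5, 62.5 and 58.3 CPM (−0.65, adjusted p = 0.0341). The groups of these genes did not overlap, but for Aunip IgG replicate 4 was close to the treated libraries. Hist1h4i, a histone H4 gene, was at 53.3, 32.7 and 23.5 CPM against 16.7, 13.7 and 14 CPM (−1.30, adjusted p = 0.0432), and its near-identical copies make that count uncertain.

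Tubb3, the beta-tubulin of neurons that many tumors also express, was at 118, 94.6 and 118 CPM in IgG and at 59.5, 56.1 and 51.5 CPM in anti-PD1 (log2 fold change −0.99, standard error 0.14, adjusted p = 0.0165). It was the 1 DEG among 14 tested tubulins, whose median was −0.30, or −0.16 without IgG replicate 1. Gdf15, a stress-induced cytokine and a target of ATF4 and p53, was at 95.4, 85.7 and 67.0 CPM in IgG and 44.7, 35.9 and 37.1 CPM in anti-PD1 (−1.07, standard error 0.17, adjusted p = 0.0187). All treated libraries lay below all controls for both genes. Gdf15 was also the 1 DEG among 41 tested genes of ATF4 and the integrated stress response (median −0.20, or −0.17 without IgG replicate 1) and among 22 p53 targets (median 0.11, or 0.04 without that library). Tnnt2, cardiac troponin T, was at 41.1, 21.8 and 29.1 CPM against 12, 9.45 and 10.6 CPM (−1.52, adjusted p = 0.0369). Dok1, an adaptor that restrains receptor kinases, was at 78.2, 60.5 and 60.7 CPM against 35.5, 41.1 and 41.8 CPM (−0.75, adjusted p = 0.0369). IgG replicate 1 was the highest library of both, and neither depended on it for its direction (−1.25 and −0.62 without it). Snhg5, a host gene of small nucleolar RNAs, was at 110, 69.8 and 61.4 CPM against 40.6, 40.0 and 34.0 CPM (−1.07, adjusted p = 0.0410). B230208H11Rik, a long noncoding RNA, was at 3.93, 4.16 and 3.01 CPM against 1.66, 1.54 and 1.56 CPM (−1.22, adjusted p = 0.0379). Serpind1, heparin cofactor II, was at 0.929, 1.10 and 0.853 CPM against 0.259, 0.134 and 0.223 CPM (−2.16, adjusted p = 0.0432). Those 3 genes had no overlap, at levels from scarce to moderate. Svop, a transporter-like protein of synaptic vesicles, was at 0.710, 0.734 and 0.703 CPM against 0.155, 0 and 0.0557 CPM (−3.13, adjusted p = 0.0396). The X-linked Xlr5b was at 2.79, 1.22 and 2.46 CPM against 0.362, 0.536 and 0.668 CPM (−2.04, adjusted p = 0.0410). Its copy Xlr5c was at 1.42, 0.612 and 1.76 CPM against 0.207, 0.201 and 0.334 CPM (−2.33, adjusted p = 0.0492). Reads of these copies could be assigned to each other, so their separate levels are uncertain.

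The interferon programs showed few calls by edgeR. All anti-PD1 libraries lay above all IgG libraries for 6 of 17 interferon-gamma signaling genes and 13 of 37 type I interferon-stimulated genes (18.8% of all genes). They lay below for 1 and 0 of these genes (15.8% of all genes). In the MHC class I list 3 genes lay above and 5 below, and in the list of guanylate-binding proteins 1 and 1. Among 17 tested genes of interferon-gamma signaling 1 was a DEG, Irf8, an interferon-inducible factor that is best known from myeloid cells and lymphocytes, which rose from 1.62 ± 0.641 to 5.92 ± 2.07 CPM (log2 fold change 1.85, adjusted p = 0.0301). The median of that list was 0.15, and its summed level was 1827, 1963 and 2021 CPM in IgG and 2072, 2069 and 2065 CPM in anti-PD1, without overlap. Irf1, a transcription factor of the pathway, was at 397 ± 47.4 CPM in IgG and 247 ± 18.7 CPM in anti-PD1 (−0.68, adjusted p = 0.0613). It did not pass, although all anti-PD1 libraries lay below all IgG libraries. None of 22 genes of MHC class I and peptide loading was a DEG (median −0.14, and −0.03 without IgG replicate 1), and the heavy chain gene H2-K1 was at 3156 ± 556 and 2746 ± 133 CPM. None of 15 guanylate-binding proteins and immunity-related GTPases (median −0.09), 37 type I interferon-stimulated genes (median 0.04, 0.14 without IgG replicate 1 and −0.01 with upper-quartile scaling) or 22 NF-kB targets (median 0.02, and −0.02 with upper-quartile scaling) was called by edgeR. In these lists DESeq2 called 0, 2 and 3 genes (10.3% of all genes) and voom called 0, 0 and 2 (1.31% of all genes). For interferon-gamma signaling, MHC class I, MHC class II and chemokine ligands, DESeq2 called 4 of 17, 4 of 22, 1 of 8 and 2 of 19. Voom called 1, 0, 0 and 0 of them, and 6, 7, 6 and 5 had an unadjusted p under 0.05 in edgeR (27.5% of all genes). Among 19 tested chemokine ligands there was no DEG (median −0.46, and −0.12 without IgG replicate 1). The sign of this median turned in other fits, to 0.07 by voom with sample quality weights and 0.21 with the T and NK cell score as a covariate. With the exon length trend removed and IgG replicate 1 left out it was 0.14. Cxcl10, which draws T cells, was at 1289, 687 and 740 CPM in IgG and 668, 468 and 550 CPM in anti-PD1 (−0.69, adjusted p = 0.0907). MHC class II genes had a median of −0.87 over 8 genes, none a DEG, which became −0.33 without IgG replicate 1. Their sums were 377, 167 and 149 CPM against 129, 154 and 57.6 CPM, with overlap, and Cd74 held 41.4% of them.

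Cd274, which encodes PD-L1, the ligand of PD1, was at 50.6, 68.5 and 69.9 CPM in IgG and at 82.0, 84.3 and 65.1 CPM in anti-PD1. The groups overlapped (log2 fold change 0.29, standard error 0.21, adjusted p = 0.381), and the fold change was 0.16 without IgG replicate 1. The list of checkpoint ligands and immune evasion held 18 tested genes, 0 DEGs and a median of 0.29, or 0.13 without IgG replicate 1. Of 30 tested cytokines and receptors 2 rose, Il1rn, the interleukin-1 receptor antagonist (2.35), and Il6st, the shared receptor chain gp130 (0.80), Gdf15 fell, and the median was 0.10. In all, 23 of the 36 lists had no DEG by edgeR. Of their 472 tested genes, 198 had an unadjusted p under 0.05 in edgeR (27.5% of all genes did), DESeq2 called 81 (10.3% of all) and voom called 5 (1.31% of all).

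**Figure D3:**
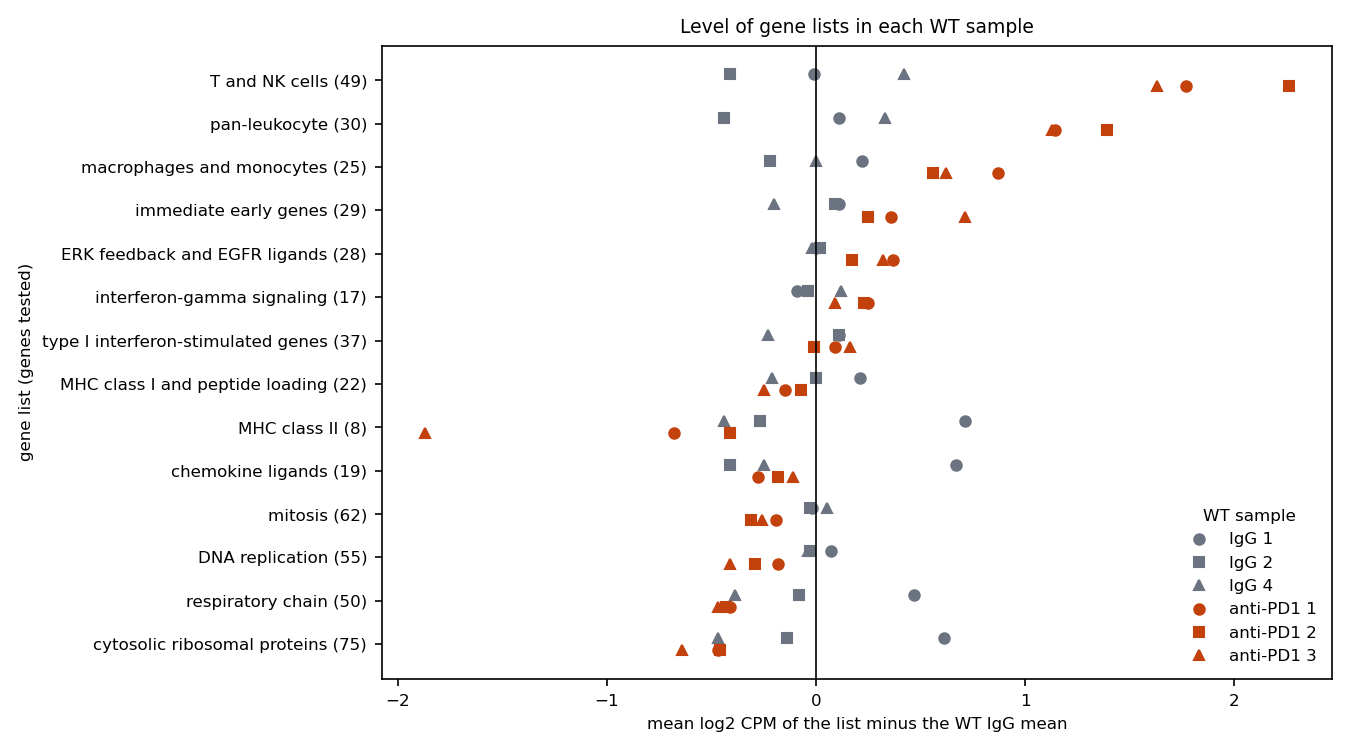
Mean log2 CPM of 14 gene lists in each WT library, minus the mean of the IgG libraries (gray, IgG; orange, anti-PD1; the number of genes tested in parentheses). T and NK cell genes lie at −0.41 to 0.42 in IgG and at 1.63 to 2.26 in anti-PD1, and ribosomal protein genes at 0.61 in IgG replicate 1 and at −0.47 in IgG replicate 4.

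Lists that follow IgG replicate 1 had large medians without a DEG. Of 75 tested cytosolic ribosomal protein genes none was called and the median was −0.59, which became −0.22 without IgG replicate 1 and −0.10 when the trend with exon length was removed as well. Respiratory chain genes, 50 tested, behaved alike, with −0.55, −0.22 and −0.11. In both lists IgG replicate 4 was at the level of the anti-PD1 libraries. For ribosomal protein genes 63 of the 75 had an unadjusted p under 0.05 in edgeR, DESeq2 called 23 and voom called 0, and for the respiratory chain the numbers were 34 of 50, 17 and 0. Over all genes tested, the shares were 27.5%, 10.3% and 1.31%. Exon length parted the DEGs too: the median was 5829 bases for the higher and 2003 bases for the lower ones, against 4128 over all genes tested. With the length trend removed, 81 of the 90 DEGs were called again among 176, and all 90 kept their direction.

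Host and lineage lists other than those of leukocytes held few DEGs. Fibroblast and pericyte genes (22 tested, median 0.04, and 0.27 without IgG replicate 1), endothelial genes (6 tested, median 0.45, and 0.32 without it), epithelial genes (11 tested, median 0.54, and 0.42 without it) and mesenchymal genes (18 tested, median −0.10, and 0.12 without IgG replicate 1) had no DEG. Summed endothelial levels were 26.8, 22.8 and 20.2 CPM in IgG and 28.5, 29.9 and 28.2 CPM in anti-PD1, with Egfl7 at 45.6% of them. The list of muscle, fat, skin and blood genes had 0 DEGs among 11 and sums of 46.5, 23.9 and 23.4 CPM against 16.1, 86.7 and 131 CPM, so anti-PD1 replicates 2 and 3 held more of this RNA, Acta1 of muscle being its most abundant gene, than replicate 1. Collagens had 1 DEG among 26, Col11a1, which rose from 6.44 ± 1.62 to 15.3 ± 3.41 CPM (log2 fold change 1.25, adjusted p = 0.0369), and a median of 0.36. Cell adhesion and integrin genes (17 tested, median 0.33), hypoxia genes (26 tested, median 0.16), glycolysis genes (24 tested, median −0.07), sterol and fatty acid synthesis genes (33 tested, median −0.02) and heat shock genes (18 tested, median −0.28) held 0 DEGs.

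Between the genotypes, the anti-PD1 response was tested as a difference, in which 1 gene of 14340 (0.00697%) passed. That gene was Errfi1, with a log2 fold change of −0.19 in A159V cells and a difference of −1.38. By edgeR the number was 1 without IgG replicate 1, again Errfi1, 1 without IgG replicate 2, a different gene, 1211 without IgG replicate 4, and 0 without anti-PD1 replicate 1, 2 or 3, where 1865, 1988 and 1783 genes had an unadjusted p under 0.05. On all libraries DESeq2 gave 295 and voom 1. The A159V libraries were not left out in turn. Among them, A159V IgG replicate 5 had a mitochondrial share of 0.832%, against 2.00% to 3.06% in the others. Pearson's r of log2 CPM was 0.972 to 0.977 between it and the other A159V libraries, and 0.987 to 0.992 among those. The part of this library in the difference was not tested. The median log2 fold change of the 71 higher DEGs was 1.93 in WT and −0.19 in A159V, and that of the 19 lower DEGs −1.01 and 0.01. In A159V, 22 of the 71 were positive and 9 of the 19 negative. The DEGs were selected in WT, which pushes their WT values away from 0, and for all of the 90 but Errfi1 the difference itself did not pass.

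Promoters from RefSeq on GRCm38.p6, from 250 bases before to 50 after a start, were held for 10605 of the genes tested, among them 48 of the 71 higher and 15 of the 19 lower DEGs. They were searched on both strands for motifs of factors that act in division or after stimulation. TTTGAA, the cell cycle homology region (CHR), was in 5 of the 15 lower promoters (33.3%), 5 of the 48 higher (10.4%) and 14.5% of all. CCAAT boxes were in 60% of the lower, 39.6% of the higher and 43.3% of all. TGACGTCA, the cAMP response element (CRE), was in 4.17% of the higher, namely Errfi1 and Irf2bpl, none of the lower and 3.49% of all, and the AP-1 motif TGANTCA in 10.4%, 0% and 6.64%. Of the interferon motifs, GAS (TTCNNNGAA) was in 12.5% of the higher promoters and 8.45% of all and ISRE (GAAANNGAA) in 8.33% and 8.82%, and 6.67% of the lower held each. The ATF4 motif TGATGCAA was in 1 higher promoter (2.08%), none of the lower and 0.924% of all. A match describes letters in a window and no more. The promoters shown are those of the gene called in every fit with a library left out and of mitotic genes that hold both CHR and CCAAT, with the matches in capitals. The mitotic genes were thus chosen for their matches, and the promoters of Birc5, Tk1, Aunip and Hirip3 held none of the motifs searched. Beside Cdk1 and Cdca3, the lower promoters with CHR were those of Fbxo5, Gdf15 and B230208H11Rik. Errfi1 has 2 starts in the table, and the window of the upstream one, at chr4:150853546-150853845, holds none of the motifs. The window of the downstream start, chr4:150854820-150855119 on the plus strand, has a CCAAT box (ATTGG on this strand) and a CRE. Cdk1 is at chr10:69352863-69353162 on the minus strand and Cdca3 at chr6:124829926-124830225 on the plus strand, each with CHR and CCAAT matches, and Cdca3 with an ISRE match. Each is written from 5′ to 3′ of its gene.
Errfi1 downstream start: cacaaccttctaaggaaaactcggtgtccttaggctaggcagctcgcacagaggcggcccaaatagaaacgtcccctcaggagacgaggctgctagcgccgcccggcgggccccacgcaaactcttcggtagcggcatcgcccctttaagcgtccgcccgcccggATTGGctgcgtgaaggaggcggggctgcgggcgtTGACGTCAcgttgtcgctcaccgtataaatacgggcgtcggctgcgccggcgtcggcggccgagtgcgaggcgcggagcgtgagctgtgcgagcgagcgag
Cdk1: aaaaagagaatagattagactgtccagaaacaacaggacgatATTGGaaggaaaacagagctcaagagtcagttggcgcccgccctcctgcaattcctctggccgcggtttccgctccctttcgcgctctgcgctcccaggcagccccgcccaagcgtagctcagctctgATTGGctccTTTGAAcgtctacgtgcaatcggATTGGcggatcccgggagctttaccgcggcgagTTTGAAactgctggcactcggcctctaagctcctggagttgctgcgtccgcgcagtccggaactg
Cdca3: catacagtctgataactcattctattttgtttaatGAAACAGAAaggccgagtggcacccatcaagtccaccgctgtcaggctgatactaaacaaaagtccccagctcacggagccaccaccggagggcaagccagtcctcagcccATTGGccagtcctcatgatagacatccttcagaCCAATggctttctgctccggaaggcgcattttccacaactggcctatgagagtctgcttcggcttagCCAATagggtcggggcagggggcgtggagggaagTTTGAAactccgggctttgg

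Both leukocyte scores part the WT groups without overlap, so that treatment and leukocyte content cannot be told apart within 6 libraries. With the T and NK cell score as a covariate edgeR called 0 genes and 266 had an unadjusted p under 0.05, and with the pan-leukocyte score it called 0 and 418 did. With the T and NK cell score 37 of the 90 log2 fold changes were at least as large as before, 49 were smaller in the same direction and 4 reversed, and with the pan-leukocyte score the numbers were 43, 42 and 5. Of the 17 leukocyte DEGs, many of them members of the scores, 1 and 2 were at least as large. A fit of the 6 WT libraries alone gave 0 DEGs by edgeR, with 3542 genes at an unadjusted p under 0.05, and DESeq2 and voom on all 12 libraries gave 1478 and 188.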

How the data were processed

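The authors aligned paired reads of 100 bases to mm10 with STAR, counted reads per gene with summarizeOverlaps and deposited these raw counts, with no normalization. The counting mode, strand setting and annotation are not stated, so genes with near-identical copies or overlapping neighbors are uncertain. Symbols, positions and exon lengths come from GENCODE M21, which matched 31980 of 33219 features. Of the features, filterByExpr with the 4 groups kept 14340 genes. A quasi-likelihood model of all 12 samples (edgeR 4.0.16, R 4.3.3, TMM scaling, 8 residual degrees of freedom) was tested for anti-PD1 minus IgG in WT and for the difference between the genotypes, with Benjamini-Hochberg adjustment over all genes tested. CPM values are TMM-scaled, apart from the floor of 3 counts, which uses raw totals. Counting intervals are exact (Clopper-Pearson). The tests were checked on simulated data. Tools were Python 3.11.15, pandas 2.3.3, numpy 2.4.6, scipy 1.17.1 and matplotlib 3.10.9.

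Any DEG could be named, but some genes that the rule selects are not reported here, neither in the text nor in the figures; the counts of DEGs include them. Values per sample are given for up to 10 DEGs per direction with the smallest p, up to 5 further with the largest log2 fold change, and Rac1, Pdcd1, Ptprc and Cd274, and list members are named where their list is described. The members and the 36 lists were chosen with earlier results of these data known, and lists got no set test. Leukocyte DEGs are members of 7 leukocyte lists.

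Alternatives were RLE (DESeq2) and upper-quartile scaling, no filter or at least 10 counts in every sample, DESeq2 1.42.0, limma 3.58.1 voom with and without sample quality weights, robust dispersions, WT samples only, other thresholds, thinning, leukocyte scores as covariates, the replicate number as a block and each WT library left out. Removal of the exon length trend, alone or without IgG replicate 1, and the fold limit as part of the test were added after seeing the data.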

Additional observations from a re-analysis of the deposited data

Results flagged for a closer look

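The response of Errfi1 to anti-PD1 differed between the genotypes, by −1.38 on the log2 scale (A159V minus WT, adjusted p = 0.0267 by edgeR's quasi-likelihood test), which is the difference between groups that put it here. The call was lost without anti-PD1 replicate 1, 2 or 3, without IgG replicate 2, with upper-quartile scaling, with either leukocyte score as a covariate and with the fold limit as part of the test. In WT it was at 40.0 ± 3.91 CPM (SD, n = 3) in IgG and 91.4 ± 6.01 CPM in anti-PD1. In A159V it was at 52.9 ± 4.73 CPM in IgG and 46.5 ± 1.64 CPM in anti-PD1.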

How the results depend on the processing

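With 90 DEGs in WT, 1 gene that differed between the genotypes and 17 leukocyte DEGs as reported, RLE scaling gave 91 DEGs in WT, upper-quartile scaling 92, robust dispersions 80 and thinning to the smallest total 79, while upper-quartile scaling gave 0 genes for the genotypes (edgeR). Counts moved further, for causes that were not tested, under these alternatives. Without a filter there were 771 DEGs in WT, 37 genes for the genotypes and 51 leukocyte DEGs. With at least 10 counts in every sample, which tests fewer genes (12137), 25 DEGs and 1 leukocyte DEG were left. DESeq2 gave 1478 and 295, and voom gave 188 DEGs with 30 leukocyte DEGs. Voom with quality weights gave 4503, 3540 and 91. An adjusted p under 0.1 gave 1387, 18 and 55. The WT samples alone, with fewer residual degrees of freedom, gave 0 DEGs and 0 leukocyte DEGs. The fold limit as part of the test gave 30, 0 and 7. Removal of the exon length trend gave 176 DEGs with 28 leukocyte DEGs, and with IgG replicate 1 also left out 1 and 0. The pan-leukocyte score as a covariate gave 0 DEGs, 0 leukocyte DEGs and, for the genotypes, 1 gene other than the one reported, and the T and NK score gave 0, 0 and 0.

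With the replicate block, the counts were 4650, 2760 and 66. Number 4 occurs in 1 library, so the block takes IgG replicate 4 out of the contrast, and without that library the counts were 3458, 1211 and 57. Libraries of the same number were not treated as paired in the main fit. Between their deviations from the group means, r was −0.04 and −0.08 for the numbers the WT groups share. For WT libraries of different numbers it was −0.15 to 0.20. So few libraries cannot settle whether the numbers mark pairs.

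With each WT library left out in turn, DEGs ranged from 1 to 3458, genes for the genotypes from 0 to 1211 and leukocyte DEGs from 0 to 57.

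Of the 90 DEGs, 83 kept their direction under each of the 24 alternatives that gave them a value; with at least 10 counts in every sample 50 of the 90 had one. With the pan-leukocyte score as a covariate the log2 fold changes reversed to −0.10 for Il2rb, −0.22 for Sh2d2a, −0.50 for Cd8a, −0.78 for Xist, −0.13 for Ms4a6b and −1.89 for Ptprc. With the T and NK score they reversed to −0.22 for Ppp1r3b, −0.67 for Xist, −0.29 for Ms4a6b, −0.34 for Nkg7 and −2.26 for Ptprc. Ptprc is in the pan-leukocyte score, and Ms4a6b and Nkg7 are in the T and NK score, so a fall of each under its own score was built in. Rac1 turned to 0.05 with quality weights, ranged from −0.18 to 0.00 with 1 WT library left out (0.00 without IgG replicate 1), and was 0.01 without it and the length trend. The cause was not tested. List medians moved by more than the spread between replicates for 8 of 36 lists without IgG replicate 1, for 11 with the length trend removed as well, for 19 with the pan-leukocyte score as a covariate, for 26 with the T and NK score, and for 0 to 7 under each other alternative.

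With 3 mice per group, a 3-count floor of 0.153 to 0.214 CPM by raw totals and 1 or few counts for several leukocyte genes in IgG, folds of scarce genes are imprecise.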

Other observations

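Xist, the noncoding RNA of the inactive X chromosome, was a DEG of the WT comparison (2.88 ± 1.68 CPM in IgG and 11 ± 3.22 CPM in anti-PD1, n = 3, log2 fold change 1.91, adjusted p = 0.0369 by edgeR). The Y-linked genes Ddx3y, Eif2s3y, Kdm5d and Uty, named after their values were seen, had 0 to 2 counts in each WT library.

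The inducible heat shock genes Hspa1a and Hspa1b had the widest gaps of their list without passing the test. Hspa1b was at 837, 829 and 763 CPM in IgG and at 209, 128 and 319 CPM in anti-PD1 (log2 fold change −1.89, standard error 0.58, adjusted p = 0.0876, lower in 3 of 3 libraries), and Hspa1a at 256, 308 and 292 CPM against 81.2, 51.9 and 124 CPM (−1.74, adjusted p = 0.103). The groups did not overlap for either gene. These are neighboring copies with similar sequence, so reads may be shared between them. Acta1, the skeletal muscle actin, was at 10.2, 2.32 and 4.87 CPM in IgG and 1.03, 43.5 and 31.1 CPM in anti-PD1 (2.11, adjusted p = 0.154), with a wide spread among treated libraries.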
